A study of Homo sapiens with 18 samples.

Results

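A set of 46 human genes known to respond to mechanical tension was followed in a podocyte line grown on fractal or smooth surfaces, with and without inflammation. The set has 19 target genes of the coactivators YAP and TAZ and 27 genes that depend on serum response factor (SRF) or build the actin cytoskeleton, and both groups were read apart. They were taken by symbol from known members of these pathways, with earlier results of these data known, among the 58735 genes of the count table. All 46 were found, and all 46 passed the filter on low counts that left 16129 genes for testing. The table measures RNA alone, so neither the location of YAP and TAZ nor the binding of any factor was measured.

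YAP and TAZ are held in the cytoplasm by the Hippo kinases and enter the nucleus when a cell spreads or pulls on a stiff surface. There they bind TEAD factors at genes such as CCN1, CCN2 and ANKRD1. SRF is switched on by its MRTF cofactors, which are released when free actin monomers are built into filaments, and it then binds CArG boxes at genes of actin, tropomyosin and calponin. Podocytes wrap the capillaries of the kidney glomerulus with foot processes that are held in shape by actin, and loss of YAP in mouse podocytes is known to damage the filter.

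RNA was sequenced from PODO/TERT256, a single line of human podocytes immortalised with telomerase. Hemispheres in 3D with a fractal or a smooth surface topography carried the cells, with 3 libraries in each of 6 groups. These were fractal with macrophages made from the human leukaemic monocyte line THP-1, smooth with THP-1-derived macrophages, fractal with the cytokines TNF-α and IL-6, smooth with these cytokines, fractal control and smooth control. All 6 groups share the line and the hemispheres, and no group was grown flat. Doses and durations are not given in the sources used here, nor is a step that would remove macrophages before lysis. No label states if the 3 libraries per group stem from independent cultures. The p-values therefore rest on differences among libraries, which could be technical.

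Library totals ran from 11488204 to 21264180 counts. Of the markers that define podocytes, NPHS1 had at most 3 counts and WT1 at most 25 counts over the 3 libraries of a group, and WT1 had none in either control group. SYNPO, the synaptopodin gene, averaged 69.1 ± 2.46 CPM (counts divided by the library total in units of 1e6, after TMM scaling) in fractal controls and 66.5 ± 3.22 CPM in smooth controls, and ACTN4 was the largest contributor to the podocyte list in every group. The library labelled fractal THP-1 replicate 3 stood apart with the lowest total, 17934 genes detected and 0.847% of counts from mitochondrial genes, and smooth cytokines replicate 2 had 8.09% from mitochondrial genes. The other 16 libraries had between 3.86% and 4.63%. In fractal THP-1 replicate 3, 4 of the 46 genes lay more than 1.5 times above both other libraries of its group (FJX1, TAGLN, CNN1 and TPM2) and 5 lay more than 1.5 times below both (ANKRD1, ASAP1, ACTG2, MYL12A and LMOD1). In smooth cytokines replicate 2, LMOD1 alone lay that far from both others, below them.

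The promoters of 6 members that the results turn on are shown first, as the 250 bases before the RefSeq start in GRCh38.p14, read along the gene's strand with motif matches in capitals. The motifs searched, on both strands, were the TEAD motif GGAATG and the SRF motif known as the CArG box. CCN2 and ANKRD1 stand for the YAP and TAZ targets, and ACTG1 and SRF for actin genes and their regulator. MYLK stands for an actin regulator that rose with THP-1, and PFN1 for an actin-binding protein that differed between the topographies with THP-1. The MYLK start shown lies deep inside the gene, which runs from 123610049 to 123884331. The ACTG1 start shown also lies well inside its gene, which runs from 81509971 to 81523847. Counts per gene do not show which start was used.
CCN2, chr6:131951373-131951622, minus strand, 3 TEAD motifs: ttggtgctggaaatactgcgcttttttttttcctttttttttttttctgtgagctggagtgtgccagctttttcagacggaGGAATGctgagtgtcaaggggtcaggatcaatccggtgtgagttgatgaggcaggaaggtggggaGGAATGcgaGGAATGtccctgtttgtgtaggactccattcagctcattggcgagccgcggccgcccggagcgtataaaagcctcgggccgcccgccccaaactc
ANKRD1, chr10:90921088-90921337, minus strand, 2 TEAD motifs: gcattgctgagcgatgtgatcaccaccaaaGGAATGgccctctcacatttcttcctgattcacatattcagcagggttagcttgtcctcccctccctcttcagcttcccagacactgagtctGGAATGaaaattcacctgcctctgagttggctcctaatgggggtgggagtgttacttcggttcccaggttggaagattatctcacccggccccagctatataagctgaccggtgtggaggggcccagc
ACTG1, chr17:81512800-81513049, minus strand, 1 CArG box: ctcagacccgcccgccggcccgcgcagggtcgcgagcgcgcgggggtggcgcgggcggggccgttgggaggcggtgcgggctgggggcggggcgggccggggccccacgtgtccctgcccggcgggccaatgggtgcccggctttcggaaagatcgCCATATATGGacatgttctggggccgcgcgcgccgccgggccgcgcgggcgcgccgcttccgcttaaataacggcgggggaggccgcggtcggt
SRF, chr6:43171019-43171268, plus strand, 2 CArG boxes: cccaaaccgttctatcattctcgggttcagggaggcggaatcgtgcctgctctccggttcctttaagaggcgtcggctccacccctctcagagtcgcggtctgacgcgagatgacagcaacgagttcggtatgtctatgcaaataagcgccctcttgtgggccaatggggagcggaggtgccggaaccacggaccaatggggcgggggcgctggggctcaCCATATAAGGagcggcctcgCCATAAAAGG
MYLK, chr3:123620549-123620798, minus strand, at a start inside the gene, 1 CArG box and the first base of a TEAD motif that runs on past the start: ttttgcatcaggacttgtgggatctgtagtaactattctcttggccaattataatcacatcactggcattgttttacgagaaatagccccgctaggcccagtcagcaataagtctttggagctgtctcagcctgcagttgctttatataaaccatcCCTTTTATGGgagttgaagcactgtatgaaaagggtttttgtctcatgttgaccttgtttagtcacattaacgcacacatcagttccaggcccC
PFN1, chr17:4948531-4948780, minus strand, 1 TEAD motif: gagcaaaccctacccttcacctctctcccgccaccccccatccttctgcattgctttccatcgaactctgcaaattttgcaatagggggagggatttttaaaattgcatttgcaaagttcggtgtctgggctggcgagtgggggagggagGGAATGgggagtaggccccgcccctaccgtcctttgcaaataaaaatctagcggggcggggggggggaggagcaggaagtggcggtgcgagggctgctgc

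In CCN2 the TEAD motifs begin at positions -169, -104 and -95 from the start, and in ANKRD1 at -220 and -128. Windows of 300 bases, from 250 before to 50 after a start, were found for 37 of the 46 genes. MYL9, TAGLN, ARHGEF17, ACTB, CRIM1, TEAD1, ASAP1, CCN1 and DLC1 had no entry. At least 1 TEAD motif was in a window of 8 of 13 YAP and TAZ targets and of 12 of 24 SRF and actin genes, and of 16.7% of all 27305 genes. A CArG box was in a window of none of those 13 targets and of 9 of those 24 SRF and actin genes (ACTG2, FHL2, MYLK, SRF, ACTN1, ACTG1, CNN2, TPM4 and FLNA), and of 1.6% of all genes. Genes with several starts have several windows, so per window the share with a TEAD motif was 8 of 16 for the targets and 13 of 44 for the SRF and actin genes, against 4928 of 35116 windows in all. These matches describe letters in a window and are not binding sites.

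The 46 genes spanned the range of abundance in these cells. In smooth controls the most abundant per length were the cytoplasmic actins ACTG1 at 8856 ± 158 TPM and ACTB at 7927 ± 204 TPM, followed by FLNA, an actin cross-linker, at 2013 ± 30.4 TPM. Among the YAP and TAZ targets the matricellular protein genes CCN1 and CCN2 were highest, at 1351 ± 31.2 and 1117 ± 14.9 TPM, and WWC1 was lowest at 13.9 ± 0.43 TPM. The neighbours CCN1 and TAGLN2 (1343 ± 21.9 TPM), and CRIM1 (451 ± 2.69 TPM), ACTN1 (429 ± 7.16 TPM) and MYL9 (425 ± 18.5 TPM), lay within a few SD of each other. The lowest of the 46 were CNN1 at 3.52 ± 0.89 TPM, ACTG2 at 2.76 ± 0.47 TPM and LMOD1 at 1.68 ± 0.10 TPM, and ACTA2, smooth muscle actin, stood at 24.6 ± 1.87 TPM. As a share of all counts, the 19 YAP and TAZ targets took 0.311% in fractal THP-1, 0.383% in smooth THP-1, 0.410% in fractal cytokine, 0.354% in smooth cytokine, 0.599% in fractal control and 0.532% in smooth control libraries. For the 27 SRF and actin genes the shares were 1.91%, 2.47%, 2.50%, 2.38%, 3.08% and 2.95% in the same order of groups. These shares are of unscaled totals and were not corrected for FN1, a single abundant gene. FN1 took 14.45% to 18.49% of counts in fractal THP-1 and 12.36% to 14.14% in smooth THP-1 libraries. It took 9.28% to 13.53% in cytokine, 8.26% to 8.33% in fractal control and 9.84% to 10.12% in smooth control libraries.

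The comparison of THP-1 groups with controls asks how the podocyte culture responds to macrophages. YAP and TAZ targets were mostly lower with THP-1 on both topographies. On fractal topography 13 of 19 fell and 3 rose, where 25.5% of all 16129 genes fell and 25.0% rose by the quasi-likelihood test of edgeR at an adjusted p (Benjamini-Hochberg) under 0.05, which called 50.5% in all. The median log2 fold change of the 19 was -0.67, against 0.04 over all genes tested. On smooth topography 12 fell and 2 rose, where 17.7% of all genes fell and 17.3% rose (35.1% in all), and the median was -0.37, against 0.02 over all genes.

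Macrophage RNA was present in the THP-1 libraries. The summed level of 20 monocyte and macrophage markers was 28.1 to 32.8 CPM in fractal THP-1, 60.7 to 66.5 CPM in smooth THP-1, 2.42 to 3.62 CPM in fractal cytokine, 5.12 to 5.79 CPM in smooth cytokine, 2.06 to 3.55 CPM in fractal control and 2.41 to 3.40 CPM in smooth control libraries. All 11 markers that could be tested rose with THP-1 on each topography. Markers such as TYROBP, with no count in any other group, passed the filter only through the THP-1 groups. That count was therefore largely set by the filter and adds no support beyond the summed levels. ITGB2 was the largest contributor in both THP-1 groups, and MRC1, C1QB and CD86 had no count in either. The part of these cells in the results was not tested, and in bulk RNA fewer cells of a type and less RNA per cell cannot be told apart.

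ANKRD1, a titin-binding repressor that is a standard readout of YAP, had 1.88, 2.54 and 1.09 CPM in fractal THP-1 libraries, against 74.4, 70.9 and 71.1 CPM in fractal controls. It had 11.8, 11.0 and 11.2 CPM in smooth THP-1 libraries, against 69.6, 71.6 and 69.8 CPM in smooth controls. Every THP-1 library was far below every control library, with the fractal ones lowest. The log2 fold change was -5.24 ± 0.21 (SE, adjusted p = 2.42e-15) on fractal and -2.63 ± 0.17 (adjusted p = 2.01e-11) on smooth topography.

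DLC1, a GTPase-activating protein, had 76.7, 79.3 and 67.0 CPM in fractal THP-1 libraries, against 413, 401 and 435 CPM in fractal controls, and 131, 119 and 110.5 CPM in smooth THP-1 libraries, against 346, 341 and 351 CPM in smooth controls. The groups did not overlap, and DLC1 fell by 2.48 ± 0.10 and by 1.53 ± 0.10 on the log2 scale. CCN2 had 367, 359 and 357 CPM in fractal THP-1 libraries against 867, 884 and 872 CPM in fractal controls, and 374, 338 and 358 CPM in smooth THP-1 libraries against 626, 611 and 623 CPM in smooth controls. The THP-1 libraries of both topographies overlapped each other, while the fractal controls lay above the smooth controls. CCN2 fell by 1.28 ± 0.08 on fractal and by 0.80 ± 0.08 on smooth topography. CCN1 had 328, 322 and 342 CPM in fractal THP-1 libraries against 766, 762 and 759 CPM in fractal controls, and 441, 445 and 477 CPM in smooth THP-1 libraries against 773, 806 and 784 CPM in smooth controls. CCN1 fell by 1.20 ± 0.09 and by 0.79 ± 0.09, with no overlap between any of these groups and their controls.

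**Figure D1:**
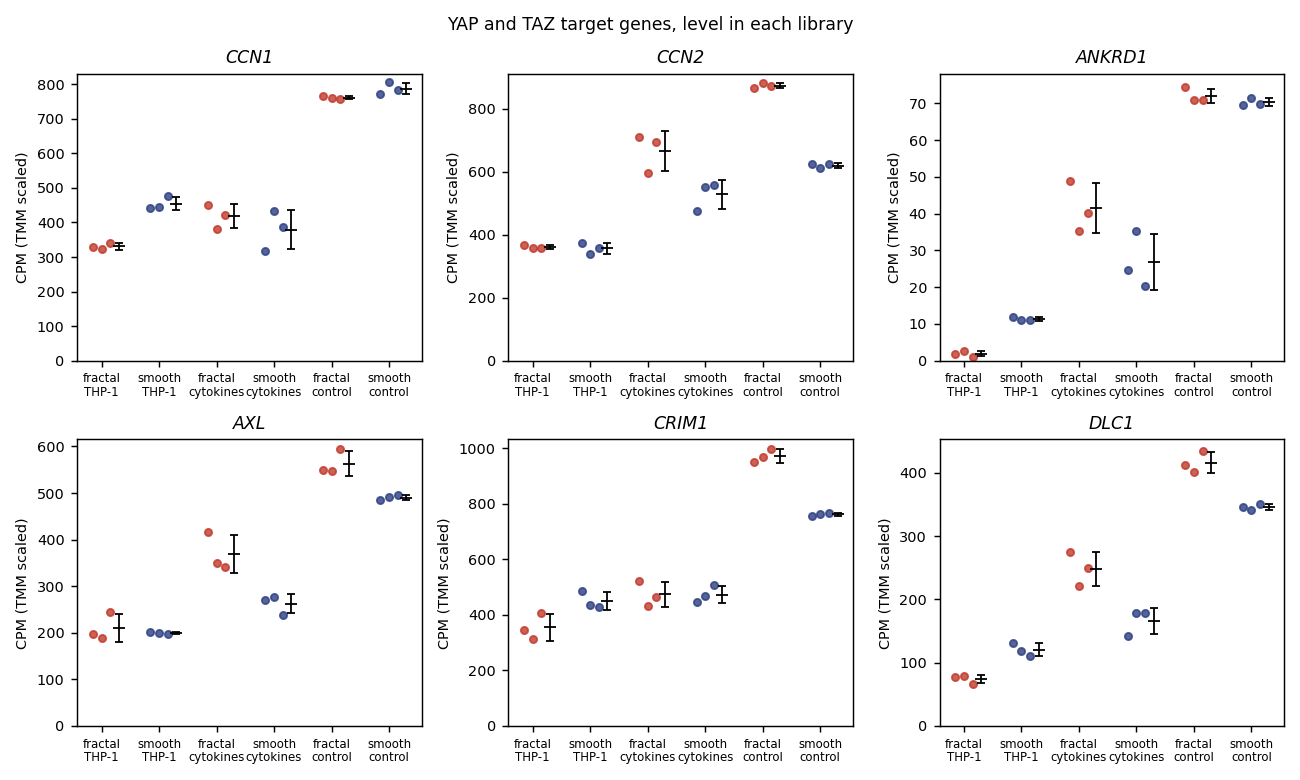
CPM (scaled by TMM, linear axis from 0) of 6 YAP and TAZ targets in each of the 18 libraries, red for fractal and blue for smooth topography, with the mean and SD of the 3 libraries beside each group. ANKRD1 lies between 1.09 and 2.54 CPM in fractal THP-1 libraries and between 11.0 and 11.8 CPM in smooth THP-1 libraries, against 69.6 to 74.4 CPM in the controls.

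The receptor tyrosine kinase AXL fell by 1.42 ± 0.09 on fractal and 1.30 ± 0.09 on smooth topography, and CRIM1, a transmembrane regulator of BMP and VEGF signalling in podocytes, by 1.45 ± 0.09 and 0.76 ± 0.09. AMOTL2, an angiomotin that holds YAP at junctions, fell by 0.85 ± 0.10 and 0.37 ± 0.10, and the LIM protein gene AJUBA by 0.64 ± 0.08 and 0.72 ± 0.08. ARHGEF17, a guanine nucleotide exchange factor that overlaps its antisense gene ARHGEF17-AS1, rose on both topographies by 0.37 ± 0.08 and 0.51 ± 0.08 (adjusted p = 0.000564 and 2.69e-05). AMOTL1 rose on fractal topography (0.31 ± 0.10, adjusted p = 0.0139) but not without fractal control replicate 2 or fractal THP-1 replicates 1 or 2 (adjusted p up to 0.0786). WWC1, the Hippo activator KIBRA, rose on smooth topography by 0.54 ± 0.12 (adjusted p = 0.00145). On fractal topography its log2 fold change of 0.40 ± 0.12 passed (adjusted p = 0.0101) but came to 0.20 without fractal THP-1 replicate 3 (adjusted p = 0.104). Without both libraries that stood apart, 15 targets fell and 2 rose on fractal topography, and 12 fell and 4 rose on smooth topography. That refit called 53.1% of all genes on fractal and 44.6% on smooth topography.

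SRF and actin genes were also mostly lower with THP-1. On fractal topography 19 of 27 fell and 1 rose, where 25.5% of all genes fell and 25.0% rose. The median log2 fold change was -0.71, against 0.04 over all genes. On smooth topography 15 fell and 3 rose, where 17.7% of all genes fell and 17.3% rose. The median there was -0.36, against 0.02 over all genes. TAGLN, CNN1 and ACTG2 had the largest falls on both topographies. TAGLN, the actin-bundling protein transgelin, had 46.2, 44.7 and 80.1 CPM in fractal THP-1 libraries against 245, 245 and 251 CPM in fractal controls, and 53.9, 52.9 and 53.7 CPM in smooth THP-1 libraries against 333, 345 and 358 CPM in smooth controls. The highest THP-1 value, in fractal THP-1 replicate 3, was still below every control. TAGLN fell by 2.12 ± 0.16 and by 2.69 ± 0.17 on the log2 scale. CNN1, smooth muscle calponin, had 13 counts over the fractal THP-1 libraries against 177 over the fractal controls (-3.38 ± 0.57, adjusted p = 2.18e-05) and 12 over the smooth THP-1 libraries against 114 over the smooth controls (-3.32 ± 0.58, adjusted p = 6.65e-05). ACTG2, the enteric smooth muscle actin, had 3 counts over the fractal THP-1 libraries against 74 over the fractal controls and 17 over the smooth THP-1 libraries against 122 over the smooth controls, and passed on both (adjusted p = 0.000153 and 0.000675).

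FLNC, ACTG1 and ACTB had larger changes on fractal than on smooth topography, a difference tested as an interaction with the other genes further on. FLNC, a filamin that cross-links actin, had 224, 224 and 296 CPM in fractal THP-1 libraries against 623, 606 and 611 CPM in fractal controls, and 391, 342 and 344 CPM in smooth THP-1 libraries against 492, 479 and 499 CPM in smooth controls. The groups did not overlap, and FLNC fell by 1.31 ± 0.11 and by 0.45 ± 0.11. ACTG1 fell by 1.02 ± 0.08 on fractal and 0.54 ± 0.08 on smooth topography, and ACTB by 0.73 ± 0.09 on fractal topography, while on smooth topography its change of -0.22 ± 0.09 did not pass (adjusted p = 0.0504). FHL2, a LIM protein that binds SRF and is itself a target, fell by 0.70 ± 0.08 and 1.09 ± 0.08, and the tropomyosin gene TPM1 by 0.76 ± 0.08 and 0.78 ± 0.08. SRF itself had log2 fold changes of -0.05 ± 0.11 and -0.04 ± 0.11, and ACTA2, which overlaps FAS and ACTA2-AS1 on the other strand, of -0.08 ± 0.21 and -0.42 ± 0.21, none of which passed. MYL9, the regulatory light chain of smooth muscle myosin, did not pass on fractal topography (-0.15 ± 0.11) and fell on smooth topography (-0.42 ± 0.11).

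MYLK, the kinase that phosphorylates myosin light chains, went the other way. It had 646, 649.8 and 726 CPM in fractal THP-1 libraries against 297, 292 and 303 CPM in fractal controls, and 738, 689.7 and 675 CPM in smooth THP-1 libraries against 352, 329.9 and 349 CPM in smooth controls. All 6 THP-1 libraries lay above all 6 controls, and MYLK rose by 1.18 ± 0.11 (adjusted p = 4.24e-09) and 1.03 ± 0.11 (adjusted p = 9.71e-08). Its exons overlap MYLK-AS1 and MYLK-AS2, whose reads cannot be told apart in libraries that kept no strand. Nor do its counts separate transcripts of the inner start shown above from those of other starts. The calponin gene CNN3 rose on smooth topography (0.32 ± 0.09) and fell on fractal topography (-0.27 ± 0.09). These calls were lost without smooth control replicate 1 (adjusted p = 0.0519) and without fractal control replicate 1 (adjusted p = 0.0559). The focal adhesion gene VCL rose on smooth topography (0.24 ± 0.08, adjusted p = 0.0275), a call that held only without smooth THP-1 replicate 2 among the 6 libraries left out in turn (adjusted p up to 0.129 without the others). On fractal topography VCL was at -0.19 ± 0.08 and did not pass, but passed without fractal THP-1 replicate 1 (adjusted p = 0.0263). TPM2 depended on fractal THP-1 replicate 3, at 531 CPM against 229.7 and 232 CPM in its companions and 317, 331 and 343 CPM in fractal controls. With it the log2 fold change was 0.00 ± 0.24, and without it -0.52 (adjusted p = 2.05e-07). Without both libraries that stood apart, 21 SRF and actin genes fell and 1 rose on fractal topography, and 19 fell and 3 rose on smooth topography. That refit called 53.1% of all genes on fractal and 44.6% on smooth topography.

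**Figure D2:**
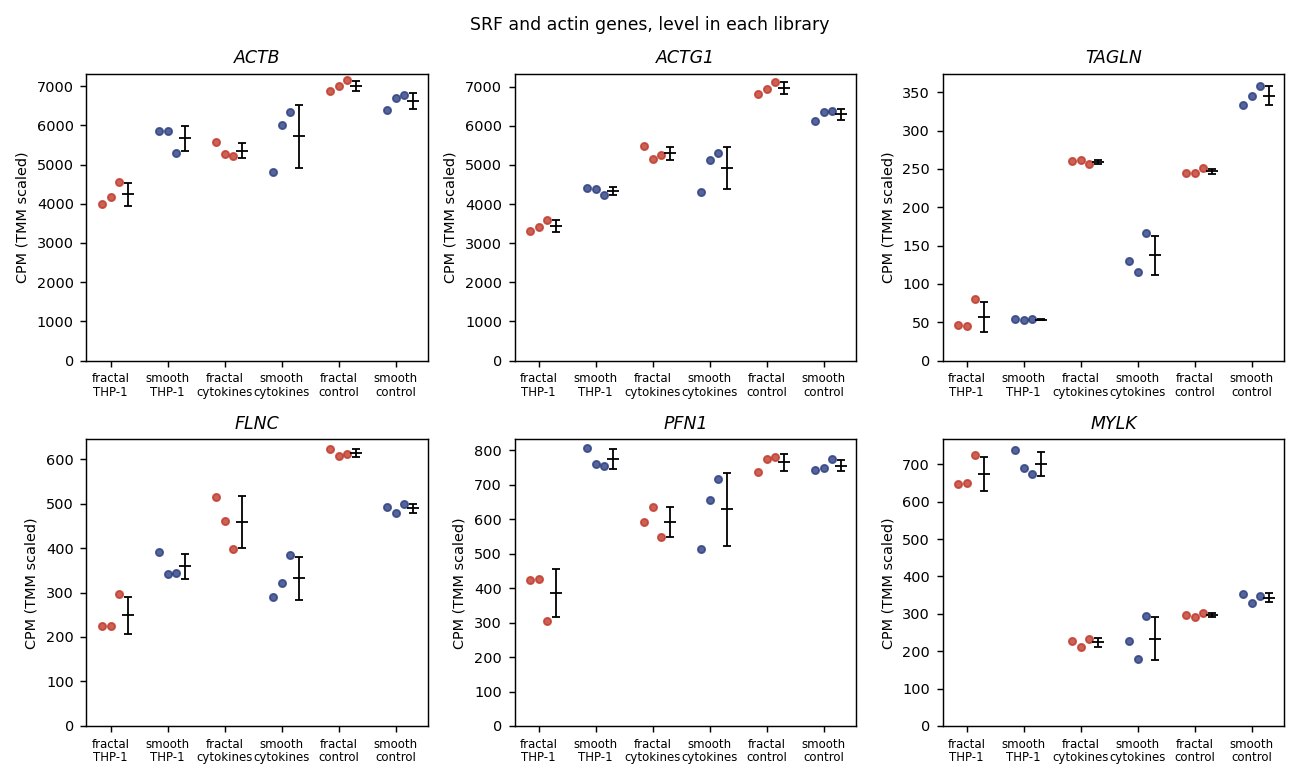
CPM (scaled by TMM, linear axis from 0) of 6 SRF and actin genes in each of the 18 libraries, red for fractal and blue for smooth topography, with the mean and SD of the 3 libraries beside each group. MYLK lies between 646 and 738 CPM in the THP-1 libraries and between 292 and 352 CPM in the controls, while TAGLN, FLNC and ACTG1 are lower in the THP-1 libraries than in the controls.

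The cytokine groups ask how the same genes respond to TNF-α and IL-6. On fractal topography 12 of 19 YAP and TAZ targets fell and 1 rose, where 12.9% of all genes fell and 13.0% rose (25.8% in all), and the median log2 fold change was -0.47, against 0.03 over all genes. On smooth topography 12 fell and 1 rose as well, where 12.4% of all genes fell and 13.2% rose (25.7% in all), with a median of -0.43, against 0.01 over all genes. These comparisons use the same control libraries as those with THP-1.

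CCN1 had 451, 381 and 423 CPM in fractal cytokine libraries against 766, 762 and 759 CPM in fractal controls, and 318, 433 and 387 CPM in smooth cytokine libraries against 773, 806 and 784 CPM in smooth controls. The cytokine libraries of both topographies overlapped each other and lay below every control. CCN1 fell by 0.87 ± 0.09 and by 1.05 ± 0.09 on the log2 scale. ANKRD1 had 48.9, 35.3 and 40.2 CPM in fractal cytokine libraries and 24.8, 35.3 and 20.4 CPM in smooth cytokine libraries, against the controls given above, and fell by 0.80 ± 0.15 and by 1.39 ± 0.15. DLC1 fell by 0.74 ± 0.09 and 1.06 ± 0.09, AXL by 0.61 ± 0.09 and 0.90 ± 0.09, AJUBA by 0.47 ± 0.08 and 0.97 ± 0.08, and CRIM1 by 1.04 ± 0.09 and 0.69 ± 0.09. AMOTL2 fell by 0.39 ± 0.10 and 0.51 ± 0.10.

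CCN2 had smaller changes, with 711, 595 and 695 CPM in fractal cytokine libraries against 867, 884 and 872 CPM in fractal controls (-0.39 ± 0.08, adjusted p = 0.000489). On smooth topography it had 475, 551 and 559 CPM with cytokines against 626, 611 and 623 CPM in controls (-0.23 ± 0.08, adjusted p = 0.0297), and that call was lost without any single smooth control library or smooth cytokines replicate 1 (adjusted p from 0.0638 to 0.138). NUAK2, a stress-responsive kinase that feeds back on YAP, fell by 1.41 ± 0.18 on fractal topography (adjusted p = 1.02e-06), and WWC1 by 1.06 ± 0.13 (adjusted p = 9.8e-07). F3, the tissue factor gene that starts blood clotting, fell by 0.75 ± 0.10 and 0.63 ± 0.10, and NT5E, the ectonucleotidase CD73, by 0.66 ± 0.10 and 0.43 ± 0.10. ARHGEF17 was the member that rose, by 0.23 ± 0.08 on fractal topography (adjusted p = 0.0411, but 0.062 to 0.24 without any single library of the 2 groups) and by 0.29 ± 0.08 on smooth topography. The smooth call was lost without smooth control replicate 2 or smooth cytokines replicates 1 or 3 (adjusted p from 0.0511 to 0.137), and its log2 fold change came to 0.18 without smooth cytokines replicate 3.

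Of the 27 SRF and actin genes, 14 fell and 1 rose with cytokines on fractal topography, where 12.9% of all genes fell and 13.0% rose. The median was -0.28, against 0.03 over all genes. On smooth topography 14 fell and none rose, where 12.4% of all genes fell and 13.2% rose. The median there was -0.27, against 0.01 over all genes. FHL2 fell by 0.49 ± 0.08 on fractal and 0.89 ± 0.08 on smooth topography, FLNC by 0.42 ± 0.11 and 0.56 ± 0.11, CNN3 by 0.81 ± 0.10 and 0.57 ± 0.09, and MYLK by 0.41 ± 0.11 and 0.56 ± 0.11. The cross-linker ACTN1 fell by 0.43 ± 0.09 and 0.38 ± 0.09, the non-muscle myosin gene MYH10 by 0.42 ± 0.08 on fractal topography, and the myosin light chain gene MYL12A by 0.63 ± 0.13 on smooth topography. CNN1 had 60 counts over the fractal cytokine libraries against 177 over the fractal controls (-1.29 ± 0.47, adjusted p = 0.0452). That call held without fractal cytokines replicate 1 but not without any other library of the 2 groups (adjusted p from 0.0709 to 0.136). It had 30 counts over the smooth cytokine libraries against 114 over the smooth controls (-2.03 ± 0.51, adjusted p = 0.00418). ACTG2 had 49 counts over the fractal cytokine libraries against 74 over the fractal controls and did not pass. It had 22 counts over the smooth cytokine libraries against 122 over the smooth controls and fell by 2.56 ± 0.60, or by 4.32 without smooth cytokines replicate 3.

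TAGLN differed between the topographies in its response. It had 260.1, 261 and 256 CPM in fractal cytokine libraries against 245, 245 and 251 CPM in fractal controls, a change of 0.07 ± 0.15 that did not pass. On smooth topography it had 129.7, 116 and 166 CPM with cytokines against 333, 345 and 358 CPM in controls and fell by 1.33 ± 0.16 (adjusted p = 3.05e-06). The fractal cytokine libraries lay within a narrow band just above their controls, while each smooth cytokine library was far below its controls.

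SRF had 80.1, 80.6 and 78.5 CPM in fractal cytokine libraries against 65.9, 61.1 and 60.5 CPM in fractal controls, and rose by 0.35 ± 0.11 (adjusted p = 0.0158). The groups did not overlap, yet the call held only without fractal control replicate 1 among the 6 libraries left out in turn (adjusted p from 0.058 to 0.0864 without the others). On smooth topography SRF had 66.8, 68.1 and 96.9 CPM with cytokines against 61.2, 66.8 and 69.0 CPM in controls and missed the threshold (0.24 ± 0.11, adjusted p = 0.109) but was called without smooth cytokines replicate 1 or 2 (adjusted p = 0.043 and 0.0398), and its change was 0.02 without replicate 3. ACTB fell by 0.39 ± 0.09 on fractal topography and did not pass on smooth topography (-0.21 ± 0.09), but passed there without smooth cytokines replicate 3 (adjusted p = 0.0148). TPM1 and VCL fell on fractal topography by 0.21 ± 0.08 and 0.23 ± 0.08, with adjusted p of 0.0489 and 0.0468. The TPM1 call was lost without any single fractal control or fractal cytokines replicate 1 (adjusted p up to 0.139), and the VCL call without any single fractal control or fractal cytokines replicate 2 (up to 0.122). On smooth topography TPM1 (0.02 ± 0.08) and VCL (-0.06 ± 0.08) did not pass, nor did ACTA2 (0.40 ± 0.20 and 0.19 ± 0.20) or MYL9 (0.25 ± 0.11 and 0.05 ± 0.11) on either topography. Without both libraries that stood apart, 14 targets fell and 1 rose on each topography. Of the SRF and actin genes 16 fell and 3 rose on fractal and 16 fell and 2 rose on smooth topography. That refit called 35.7% of all genes on fractal and 34.2% on smooth topography.

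**Figure D3:**
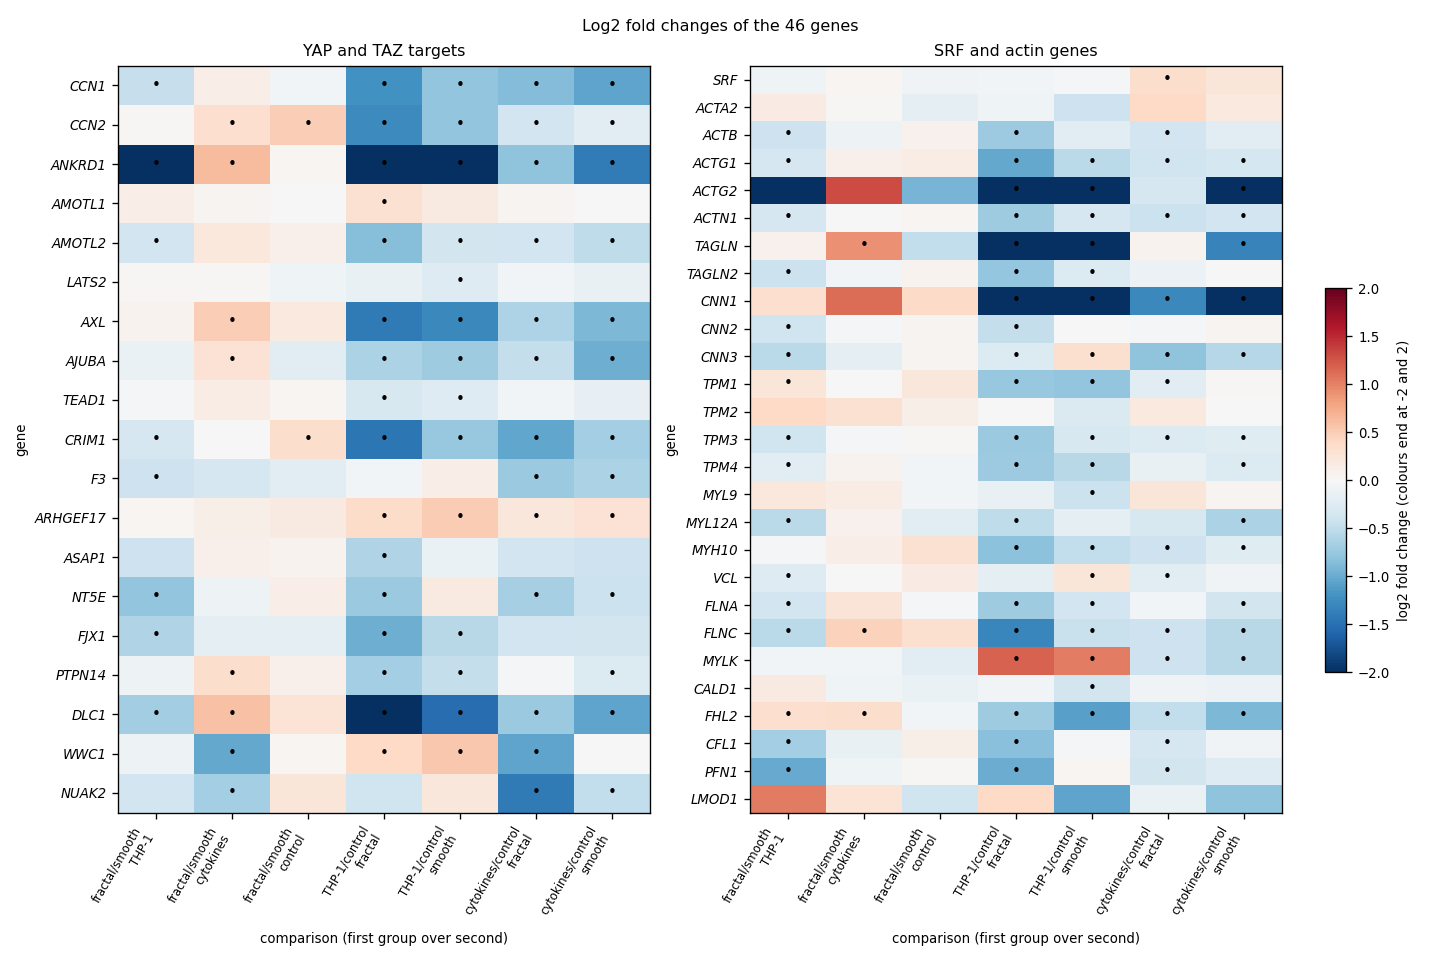
Log2 fold changes of the 46 genes (rows) in 7 comparisons of 2 groups (columns, the named group over the other), with colours that end at -2 and 2 and a dot where edgeR's adjusted p was under 0.05. Most cells of the treatment columns are blue, with MYLK red in both THP-1 columns and, of the cytokine against control columns, TAGLN blue in the smooth one alone.

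Setting fractal against smooth topography within a condition asks what the surface does. In controls, 2 of 19 YAP and TAZ targets were higher on fractal topography and none was lower, where 0.651% of all genes were higher and 1.12% lower (1.77% in all). The median log2 fold change was 0.06, against -0.01 over all genes. CCN2, with the values given above, was higher by 0.50 ± 0.08 (adjusted p = 0.000601), a 1.41-fold difference with no overlap. CRIM1 had 951, 968 and 997 CPM in fractal controls and 756, 765 and 766 CPM in smooth controls. Its groups did not overlap, and it was higher by 0.35 ± 0.09 (adjusted p = 0.0388), but the call was lost without any single library of the 2 groups (adjusted p from 0.105 to 0.188), which leaves 1 target called. AXL (0.20 ± 0.09), AMOTL2 (0.09 ± 0.10), ANKRD1 (0.04 ± 0.15) and CCN1 (-0.05 ± 0.09) did not pass.

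None of the 27 SRF and actin genes passed between the controls with edgeR, where 1.77% of all genes did, and the median was 0.02. TAGLN had the lower values on fractal topography, 245, 245 and 251 CPM against 333, 345 and 358 CPM, with no overlap, and did not pass (-0.49 ± 0.15, adjusted p = 0.147). Changes of TPM1 (0.22 ± 0.08), VCL (0.17 ± 0.08), ACTB (0.08 ± 0.09), MYL9 (-0.06 ± 0.11), SRF (-0.07 ± 0.11), ACTA2 (-0.18 ± 0.20) and CNN1 (0.38 ± 0.45) did not pass either. Chi-square per degree of freedom between libraries of a group was 2.46 to 3.24 in controls and 3.32 to 58.2 in treated groups, which share 1 estimate of spread with the controls. In a fit to these 6 libraries alone, 9 targets (7 higher, 2 lower) and 13 SRF and actin genes (8 higher, 5 lower) were called, while 2755 genes were called in all. Among the SRF and actin genes, 4 had an unadjusted p under 0.05 with edgeR. DESeq2 called MYH10 alone, and limma-voom called MYH10 and TAGLN. Without the libraries that stood apart, 4 targets were higher and 2 lower, and 3 SRF and actin genes were higher and 3 lower. That refit called 1188 of 16569 genes (7.17%), against 1.77% in the main fit.

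With cytokines, 6 of 19 targets were higher on fractal topography and 2 were lower, where 1.72% of all genes were higher and 2.74% lower (4.46% in all). The median log2 fold change was 0.12, against 0.00 over all genes. DLC1 had 275, 221 and 249.8 CPM in fractal cytokine libraries against 143, 178 and 178 CPM in smooth cytokine libraries. It was higher by 0.58 ± 0.09 (adjusted p = 0.000208), AXL by 0.49 ± 0.09 (adjusted p = 0.000922) and CCN2 by 0.34 ± 0.08 (adjusted p = 0.00855), each with no overlap between the groups. WWC1 had 14.4, 19.6 and 15.4 CPM in fractal cytokine libraries against 30.1, 33.9 and 36.5 CPM in smooth cytokine libraries, and was lower by 1.02 ± 0.13 (adjusted p = 8.29e-06). ANKRD1 (0.63 ± 0.15), AJUBA (0.29 ± 0.08) and PTPN14 (0.35 ± 0.09), a phosphatase that binds YAP, were higher and NUAK2 (-0.68 ± 0.18) was lower. CCN1 (0.14 ± 0.09) and AMOTL2 (0.22 ± 0.10) did not pass.

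Of the 27 SRF and actin genes, 3 were higher on fractal topography with cytokines and none was lower, with a median of 0.04. Of all genes, 1.72% were higher and 2.74% lower. TAGLN was higher by 0.92 ± 0.16 (adjusted p = 0.000956), which is 1.89-fold, and its fractal libraries lay above its smooth libraries. FLNC was higher by 0.46 ± 0.11 and FHL2 by 0.36 ± 0.08. CNN1 (1.12 ± 0.53), MYL9 (0.14 ± 0.11), SRF (0.04 ± 0.11), ACTA2 (0.03 ± 0.20), VCL (0.00 ± 0.08), TPM1 (-0.00 ± 0.08) and ACTB (-0.10 ± 0.09) did not pass. MYL9 came to 0.35 and passed without smooth cytokines replicate 3 (adjusted p = 0.00817).

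These counts leaned on single libraries. The number of targets called was 3 without fractal cytokines replicate 1, 4 without fractal cytokines replicate 3 and 5 without smooth cytokines replicate 3, while the calls of DLC1, AXL, WWC1 and TAGLN held without each library in turn. The number of SRF and actin genes called was 1 without fractal or smooth cytokines replicate 1 and 6 without smooth cytokines replicate 3. ANKRD1 lost its call without fractal cytokines replicate 1 or smooth cytokines replicates 1 or 3 (adjusted p up to 0.155), and CCN2 without fractal cytokines replicates 1 or 3 or smooth cytokines replicate 1 (up to 0.102). AJUBA lost it without replicate 1 or 3 of either group (up to 0.232), PTPN14 without fractal cytokines replicates 1 or 3 or smooth cytokines replicate 2 (up to 0.0911), and NUAK2 without fractal cytokines replicates 1 or 3 or smooth cytokines replicates 2 or 3 (up to 0.185). FHL2 and FLNC lost it without fractal or smooth cytokines replicate 1 (up to 0.104 and 0.118). Without both libraries that stood apart, 7 targets were higher and 2 lower, and 4 SRF and actin genes were higher and 3 lower. That refit called 9.42% of all genes.

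With THP-1, targets that differed were lower on fractal topography. None of the 19 targets was higher on fractal topography and 8 were lower, where 8.25% of all genes were higher and 11.7% lower (20.0% in all), and the median log2 fold change was -0.34, against 0.00 over all genes. ANKRD1 had 1.88, 2.54 and 1.09 CPM in fractal THP-1 libraries against 11.8, 11.0 and 11.2 CPM in smooth THP-1 libraries. It was lower by 2.57 ± 0.23 on the log2 scale (adjusted p = 1.58e-08), with 88 counts over the fractal libraries. NT5E had 282, 273 and 214 CPM in fractal THP-1 libraries against 468, 435 and 432 CPM in smooth THP-1 libraries, and was lower by 0.79 ± 0.10 (adjusted p = 1.63e-06). DLC1, CCN1 and the Golgi kinase relative FJX1 were lower by 0.69 ± 0.10, 0.46 ± 0.09 and 0.60 ± 0.19.

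AMOTL2 (-0.39 ± 0.10), CRIM1 (-0.34 ± 0.09) and F3 (-0.41 ± 0.10) were lower as well, while CCN2 (0.02 ± 0.08) and AXL (0.08 ± 0.09) did not pass. FJX1 kept its call only without fractal THP-1 replicate 3 among the 6 libraries left out in turn (adjusted p from 0.0603 to 0.11 without the others), and CRIM1 lost it without fractal THP-1 replicate 2 or smooth THP-1 replicate 1 (0.0506 to 0.0548). Macrophage markers differed between the same groups, with a sum of 28.1 to 32.8 CPM in fractal and 60.7 to 66.5 CPM in smooth THP-1 libraries. Their part in these differences was not tested. Without both libraries that stood apart, 1 target was higher and 12 were lower, and in a fit to these 6 libraries alone none was higher and 5 were lower. Over all genes the calls moved the same way. The refit without both libraries called 25.5% of them, against 20.0% (3220 genes) in the main fit, and the fit to 6 libraries called 1412.

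Among the 27 SRF and actin genes 2 were higher and 14 lower on fractal topography with THP-1, with a median of -0.26. Of all genes, 8.25% were higher and 11.7% lower. PFN1, which encodes the actin monomer-binding protein profilin and overlaps ENO3 on the other strand, had 425, 426 and 305 CPM in fractal THP-1 libraries against 807, 762 and 756 CPM in smooth THP-1 libraries. It was lower by 1.01 ± 0.11 (adjusted p = 3.36e-07), a fold of 0.497, and the groups were far apart. CFL1, cofilin, which severs filaments, had 399, 388 and 439 CPM in fractal THP-1 libraries against 625, 674 and 653 CPM in smooth THP-1 libraries and was lower by 0.67 ± 0.09 (adjusted p = 3.02e-06). CNN3 and FLNC were each lower by 0.53, with SE of 0.09 and 0.11.

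ACTB had 3991, 4165 and 4559 CPM in fractal THP-1 libraries against 5858, 5849.9 and 5306 CPM in smooth THP-1 libraries and was lower by 0.42 ± 0.09 (adjusted p = 0.0011). Near-identical actin genes and pseudogenes can share reads, so the values of ACTB and ACTG1 are uncertain in that respect. MYL12A was lower by 0.54 ± 0.13, or by 0.32 without fractal THP-1 replicate 3, where the call held. VCL was lower by 0.26 ± 0.08 (adjusted p = 0.025, and up to 0.111 without fractal THP-1 replicate 2 or smooth THP-1 replicates 1 or 3).

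FHL2 was higher by 0.34 ± 0.08, or by 0.21 without fractal THP-1 replicate 3, where the call held. TPM1 was higher by 0.25 ± 0.08 (adjusted p = 0.0219) but lost the call without fractal THP-1 replicate 3 (0.15) or smooth THP-1 replicates 1 or 2 (adjusted p up to 0.0907). TAGLN had 46.2, 44.7 and 80.1 CPM in fractal THP-1 libraries against 53.9, 52.9 and 53.7 CPM in smooth THP-1 libraries, so the groups overlapped through 1 library, and it did not pass (0.08 ± 0.16). Without both libraries set apart, TAGLN was lower on fractal topography by 0.24 (adjusted p = 0.0184). MYL9 (0.21 ± 0.11), ACTA2 (0.16 ± 0.21), CNN1 (0.33 ± 0.72) and SRF (-0.08 ± 0.11) did not pass either. When both libraries that stood apart were left out, 3 SRF and actin genes were higher and 15 lower, and in a fit to these 6 libraries alone none was higher and 8 were lower. Of all genes, the refit without both libraries called 25.5%, against 20.0% (3220 genes) in the main fit, and the fit to 6 libraries called 1412.

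Whether the response to inflammation differed between the topographies was tested as an interaction, the log2 fold change against control on fractal topography minus that on smooth topography. For THP-1, 7 of 19 targets had a lower value on fractal topography and none a higher one, where 7.88% of all genes were lower and 5.35% higher (13.2% in all). ANKRD1 differed by -2.60 ± 0.27 (adjusted p = 4.83e-07), DLC1 by -0.96 ± 0.13, NT5E by -0.93 ± 0.14 and CRIM1 by -0.69 ± 0.13. CCN2 (-0.48 ± 0.11), AMOTL2 (-0.48 ± 0.14) and CCN1 (-0.41 ± 0.12) followed. NT5E had 282, 273 and 214 CPM in fractal THP-1 against 423, 437 and 430.1 CPM in fractal control libraries, but 468, 435 and 432 CPM in smooth THP-1 against 390.1, 387 and 399 CPM in smooth control libraries. It fell by 0.74 ± 0.10 on fractal topography and did not pass on smooth topography (0.18 ± 0.10).

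Of the 27 SRF and actin genes, 10 had a lower value on fractal topography and 1 a higher one, where 7.88% of all genes were lower and 5.35% higher. PFN1 had 425, 426 and 305 CPM in fractal THP-1 against 738, 776 and 782 CPM in fractal control libraries, and 807, 762 and 756 CPM in smooth THP-1 against 744, 748 and 776 CPM in smooth control libraries. It fell by 0.99 ± 0.11 on fractal topography and was at 0.04 ± 0.11 on smooth topography, an interaction of -1.02 ± 0.16 (adjusted p = 5.48e-05). FLNC (-0.86 ± 0.15), CFL1 (-0.79 ± 0.12), CNN3 (-0.59 ± 0.13), ACTB (-0.50 ± 0.12), TAGLN2 (-0.50 ± 0.12), ACTG1 (-0.48 ± 0.11), CNN2 (-0.46 ± 0.13), VCL (-0.43 ± 0.12) and TPM3 (-0.42 ± 0.12) also had lower values, and FHL2 a higher one (0.38 ± 0.12). TAGLN (0.57 ± 0.22, adjusted p = 0.109) passed without fractal THP-1 replicate 1 or 2 (adjusted p of 0.042 and 0.0267). SRF (-0.01 ± 0.15), ACTA2 (0.34 ± 0.29), MYL9 (0.27 ± 0.15), TPM1 (0.03 ± 0.11) and CNN1 (-0.05 ± 1.00) did not pass, nor did AXL (-0.12 ± 0.13).

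Of these interaction calls, those of CCN1, AMOTL2, CNN2, TPM3 and FHL2 depended on single libraries, with adjusted p up to 0.0695, 0.0531, 0.0542, 0.0645 and 0.079 when these were left out. They were fractal control replicates 1, 2 and 3, smooth control replicates 1 and 3 and smooth THP-1 replicate 3 for CCN1. For AMOTL2 they were fractal control replicate 3, smooth control replicate 2 and fractal THP-1 replicate 2, and for CNN2 fractal control replicate 2 and smooth THP-1 replicate 2. For TPM3 they were fractal control replicate 2, smooth control replicates 1 and 3, fractal THP-1 replicates 1 and 2 and smooth THP-1 replicate 1, and for FHL2 every control and every smooth THP-1 library. When both libraries that stood apart were left out, 11 targets had a lower and none a higher value. Of the SRF and actin genes 13 had a lower and 2 a higher value. That refit called 22% of all genes.

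**Figure D4:**
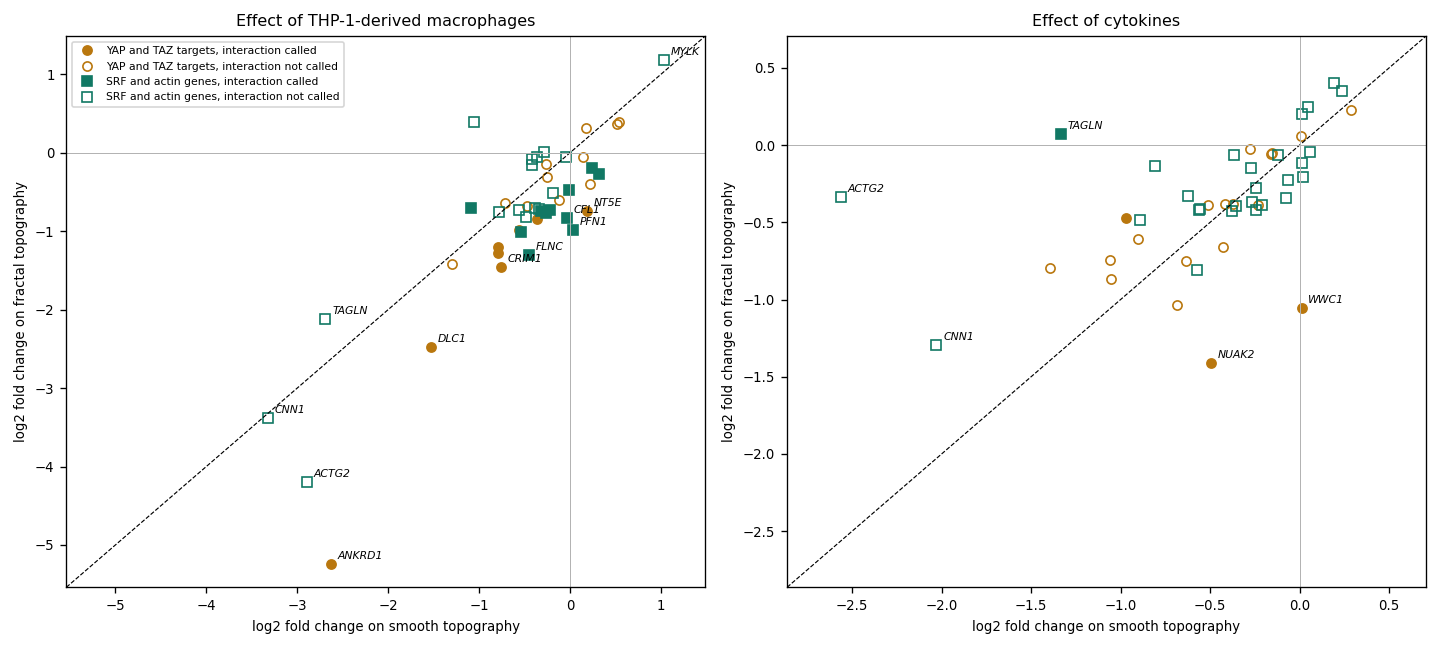
Log2 fold change against control on fractal (vertical axis) and smooth topography (horizontal axis) of the 46 genes, with THP-1 on the left and cytokines on the right, filled where the interaction passed and with a dashed line where both changes are equal. ANKRD1, DLC1, FLNC and PFN1 lie below the line with THP-1, and TAGLN lies above it with cytokines.

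For cytokines, 2 targets had a lower value on fractal topography and 1 a higher one, where 1.43% of all genes were lower and 1.28% higher (2.70% in all). WWC1 differed by -1.07 ± 0.18 (adjusted p = 0.000757), with 14.4, 19.6 and 15.4 CPM in fractal cytokine against 34.2, 33.5 and 35.2 CPM in fractal control libraries, and 30.1, 33.9 and 36.5 CPM in smooth cytokine against 33.4, 33.9 and 32.4 CPM in smooth control libraries. The fractal cytokine libraries alone were low. NUAK2 differed by -0.92 ± 0.24 (adjusted p = 0.0379) and AJUBA by 0.50 ± 0.11 (adjusted p = 0.0117). Of the SRF and actin genes TAGLN alone was called, at 1.40 ± 0.22 (adjusted p = 0.000891). FHL2 (0.41 ± 0.12, adjusted p = 0.0626), AXL (0.29 ± 0.13), CCN1 (0.19 ± 0.12) and CCN2 (-0.16 ± 0.11) did not pass. AMOTL2 (0.12 ± 0.14), SRF (0.11 ± 0.15), ACTA2 (0.21 ± 0.29), ACTB (-0.18 ± 0.12), TPM1 (-0.22 ± 0.11), MYL9 (0.20 ± 0.15), VCL (-0.16 ± 0.12) and CNN1 (0.74 ± 0.69) did not pass either, though MYL9 came to 0.40 and passed without smooth cytokines replicate 3 (adjusted p = 0.0458).

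The calls of WWC1 and TAGLN held without each library in turn. AJUBA lost its call without fractal cytokines replicate 1 or smooth cytokines replicate 3 (adjusted p of 0.0512 to 0.0594), and NUAK2 without any single control, fractal cytokines replicates 1 or 3 or smooth cytokines replicates 2 or 3 (0.0657 to 0.125), which left 1 target called without fractal cytokines replicate 1 or smooth cytokines replicate 3. ANKRD1 (0.59 ± 0.21, adjusted p = 0.171) passed without smooth cytokines replicate 2 (0.84, adjusted p = 0.00957). The number of SRF and actin genes called was 3 without smooth cytokines replicate 3. When both libraries that stood apart were left out, 5 targets had a higher and 3 a lower value. Of the SRF and actin genes 3 had a higher and 2 a lower value. That refit called 8.82% of all genes.

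Genes of the Hippo pathway, with those of YAP, TAZ and TEAD factors among them, were read in the same fits. These fits called 50.5% of all genes with THP-1 on fractal topography and 35.1% with THP-1 on smooth topography. With cytokines they called 25.8% on fractal and 25.7% on smooth topography. Of 20 Hippo kinases, adaptors and transcription factors, 5 rose and 11 fell with THP-1 on fractal topography (median -0.27), 4 rose and 5 fell with THP-1 on smooth topography (-0.14), 1 rose and 9 fell with cytokines on fractal topography (-0.19), and 1 rose and 8 fell with cytokines on smooth topography (-0.09). FRMD6, a membrane adaptor of the pathway, fell by 1.56 ± 0.09, 1.14 ± 0.09, 0.76 ± 0.09 and 0.76 ± 0.09 in that order. NF2, which encodes merlin, an activator of the Hippo kinases, fell by 1.30 ± 0.10, 0.68 ± 0.10, 1.09 ± 0.10 and 0.79 ± 0.10. VGLL4, which competes with YAP for TEAD, rose by 1.67 ± 0.10, 0.98 ± 0.10, 0.96 ± 0.10 and 1.02 ± 0.10. These 4 comparisons share their controls in pairs. With THP-1 the Hippo scaffold gene SAV1 rose by 0.94 ± 0.09 on fractal and 0.68 ± 0.09 on smooth topography.

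YAP1 averaged 188 ± 2.87 CPM in fractal THP-1, 191 ± 14.4 CPM in smooth THP-1, 209 ± 6.49 CPM in fractal cytokine, 198 ± 11.9 CPM in smooth cytokine, 214 ± 3.05 CPM in fractal control and 204 ± 8.81 CPM in smooth control libraries. It fell with THP-1 on fractal topography by 0.19 ± 0.07 (adjusted p = 0.0319). WWTR1, the gene of TAZ, averaged 143 ± 4.72, 212 ± 15.4, 155 ± 5.71, 153 ± 7.36, 185 ± 7.75 and 205 ± 3.48 CPM in the same order of groups, and between the topographies with THP-1 it was lower on fractal topography by 0.57 ± 0.07 (adjusted p = 1.8e-06). No gene of this list passed between the topographies in controls or with cytokines, or in the interaction for cytokines. Of all genes only 1.77%, 4.46% and 2.70% passed there, so the lack of calls in a list of 20 lies near these shares. In the interaction for THP-1, 4 had a lower and 2 a higher value on fractal topography, among them NF2 (-0.62 ± 0.14) and VGLL4 (0.68 ± 0.14). Of all genes 7.88% were lower and 5.35% higher there (13.2% in all).

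Of 7 tested genes of other published YAP and TAZ signatures, 2 rose and 4 fell with THP-1 on fractal topography, 1 rose and 4 fell with THP-1 on smooth topography, and 1 rose and 5 fell with cytokines on either topography, beside the shares of all genes just given. The ligand gene TGFB2 fell by 2.16 ± 0.14 and 2.21 ± 0.14 with THP-1 on fractal and smooth topography. IGFBP3, a carrier of insulin-like growth factors, rose by 1.46 ± 0.10 with THP-1 on fractal topography and by 1.48 ± 0.10 and 1.49 ± 0.10 with cytokines on fractal and smooth topography, and its interaction for THP-1 was 1.39 ± 0.15 (adjusted p = 2.36e-07).

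On the SRF side, of 6 cofactor genes MRTFA fell with THP-1 on fractal topography by 0.43 ± 0.09 and MRTFB rose by 0.50 ± 0.14. With cytokines MRTFB rose by 0.39 ± 0.14 on each topography, ELK1 by 0.31 ± 0.11 on fractal and 0.37 ± 0.11 on smooth topography and ELK3 by 0.28 ± 0.09 on smooth topography, while MYOCD, the smooth muscle cofactor, fell by 1.41 ± 0.36 on fractal topography. ELK1 rose with THP-1 on smooth topography (0.28 ± 0.11, adjusted p = 0.0478). Of 9 immediate early targets, which SRF switches on within minutes of a stimulus, 1 rose and 4 fell with THP-1 on fractal topography, where 50.5% of all genes were called, and 1 rose and 5 fell on smooth topography, where 35.1% were. With cytokines 3 rose and none fell on fractal topography (25.8% of all genes called), and 3 rose and 1 fell on smooth topography (25.7%). On fractal topography these counts lie near the share of all genes. FOS rose with cytokines by 3.00 ± 0.23 on fractal and 0.90 ± 0.22 on smooth topography, an interaction of 2.10 ± 0.32 (adjusted p = 0.000618), and FOSB by 3.03 ± 0.20 and 1.53 ± 0.19. Their controls differed as well. On fractal against smooth topography FOS was at -0.92 ± 0.24 in controls (adjusted p = 0.0546) and FOSB was lower by 0.81 ± 0.21 (adjusted p = 0.0414). Between the cytokine groups FOS was higher on fractal topography by 1.18 ± 0.21 (adjusted p = 0.00172). With THP-1 EGR1 fell by 1.11 ± 0.19 and 1.45 ± 0.19, and FOS fell by 2.35 ± 0.27 on smooth topography. On fractal topography FOS did not pass with THP-1 (-0.42 ± 0.25), and its interaction for THP-1 was 1.93 ± 0.37 (adjusted p = 0.00148).

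Of 15 genes that carry small GTPase signals to actin, 4 rose and 8 fell with THP-1 on fractal topography (50.5% of all genes called), 2 rose and 6 fell with THP-1 on smooth topography (35.1%), and 1 rose and 7 fell with cytokines on each topography (25.8% on fractal, 25.7% on smooth). DIAPH3, a formin that lengthens filaments, fell by 2.52 ± 0.15, 1.03 ± 0.14, 1.13 ± 0.14 and 1.17 ± 0.14 in these comparisons, and its interaction for THP-1 was -1.49 ± 0.21 (adjusted p = 2.25e-05). RHOB, an inducible small GTPase, rose on fractal topography by 0.82 ± 0.09 with THP-1 and 1.08 ± 0.09 with cytokines, with interactions of 0.81 ± 0.13 and 0.84 ± 0.13. In controls RHOB and CDC42EP3 were lower on fractal topography, by 0.39 ± 0.09 and 0.43 ± 0.10 (adjusted p = 0.0264 and 0.0175). Of 16 other actomyosin genes, 13 fell with THP-1 on fractal topography, 8 with THP-1 on smooth topography and 7 with cytokines on each topography, and none rose, against the same shares of all genes. TMSB4X, thymosin, which holds actin monomers, fell by 0.53 ± 0.09 and 0.64 ± 0.09 with cytokines on fractal and smooth topography.

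Cell type markers were summed in the same libraries. The 10 podocyte markers summed to 1089.5 ± 102 CPM in fractal THP-1, 1499 ± 105 CPM in smooth THP-1, 1419 ± 84.2 CPM in fractal cytokine, 1239 ± 121 CPM in smooth cytokine, 1715 ± 11.5 CPM in fractal control and 1714 ± 43.0 CPM in smooth control libraries, so they were lower in the treated groups, as most members were. With THP-1 on fractal topography PODXL, podocalyxin, fell by 1.97 ± 0.23, the junction gene TJP1 by 0.95 ± 0.10 and ACTN4 by 0.70 ± 0.09. The 10 mesangial and smooth muscle markers, with SMTN the largest contributor in each group, summed to 77.9 ± 6.08 CPM in fractal THP-1, 129 ± 5.41 CPM in smooth THP-1, 99.1 ± 8.10 CPM in fractal cytokine, 90.6 ± 10.3 CPM in smooth cytokine, 145 ± 2.63 CPM in fractal control and 128 ± 1.63 CPM in smooth control libraries. The 8 endothelial markers summed to 20.1 ± 3.55, 28.9 ± 1.33, 8.34 ± 1.39, 13.1 ± 0.53, 11.9 ± 2.08 and 13.8 ± 0.91 CPM in the same order, and EMCN had no count in any group. ITGA8 and GATA3, which mark mesangial cells, had no count in any group. The part of these genes in the results was not tested.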

How the data were processed

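Sequencing counts per gene were deposited as whole numbers. Per the submitters' processing notes the authors used CASAVA, HISAT2 2.0.5 and featureCounts 1.5.0-p3 with GRCh38 (hg38). Per the labels' protocols RNA was selected with poly-T beads and sequenced as pairs of 150 bases without strand, so overlapping antisense genes cannot be separated. The annotation is not given in the sources used here. Gene positions come from GENCODE 29, which held all 58735 IDs, and promoters from RefSeq GRCh38.p14.

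From the counts, edgeR 4.0.16 in R 4.3.3 was run over all 18 libraries (1 mean per group, TMM scaling, filterByExpr with a minimum count of 10 and total of 15, robust quasi-likelihood, 12 residual degrees of freedom), with Benjamini-Hochberg adjustment over 16129 genes and a threshold of 0.05, for 9 comparisons. The fit was tested on simulated data with the same spread in all groups, so that test does not cover the unequal spread of these groups. The ± of a level is the SD over 3 libraries, and that of a log2 change is its SE. A gene's fitted change depends on edgeR's prior count where a group has few counts. TPM used exonic length. Library totals set the precision, and intervals cover the spread between libraries only. Samples were grouped by their titles' labels, and every column matched a sample.

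The members and lists were chosen with earlier results of these data known. Named by rule were, per comparison and class, up to 5 called members each way by size of change, 13 fixed genes, every called interaction and up to 3 called genes each way of the other lists. Alternatives were RLE and upper-quartile scaling, DESeq2 1.42.0, limma-voom (limma 3.58.1), no filter, a filter of 1 CPM in 3 libraries, fits to the compared groups alone, a replicate block, leaving out each library, and leaving out both libraries that stood apart. Replicate numbers did not pair the libraries. Plots used matplotlib 3.10.9 and Python 3.11.15. A few genes of the other lists are not reported here.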

Additional observations from a re-analysis of the deposited data

Results flagged for a closer look

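In 22 cases the response to inflammation differed between the topographies by the interaction test (edgeR, adjusted p under 0.05), given as the log2 fold change against control on fractal minus that on smooth topography. With cytokines the differences were 0.50 for AJUBA, -1.07 for WWC1, -0.92 for NUAK2 and 1.40 for TAGLN. With THP-1 the YAP and TAZ targets differed by -0.41 for CCN1, -0.48 for CCN2, -2.60 for ANKRD1, -0.48 for AMOTL2, -0.69 for CRIM1, -0.93 for NT5E and -0.96 for DLC1. The SRF and actin genes differed by -0.50 for ACTB, -0.48 for ACTG1, -0.50 for TAGLN2, -0.46 for CNN2, -0.59 for CNN3, -0.42 for TPM3, -0.43 for VCL, -0.86 for FLNC, 0.38 for FHL2, -0.79 for CFL1 and -1.02 for PFN1 with THP-1. Summed macrophage markers were 30.0 ± 2.51 CPM in fractal THP-1 and 63.2 ± 3.03 CPM in smooth THP-1 libraries, and their part in these differences was not tested.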

How the results depend on the processing

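Of 414 results for single genes, 182 were called, and 132 of these kept the call in every alternative run while 50 lost it in at least 1. The number of YAP and TAZ targets called between topographies in controls was 2, and 9 in a fit to those groups alone and 6 without both libraries that stood apart. For SRF and actin genes it was 0, with 1 for DESeq2, 2 for limma-voom, 3 with no filter, 13 in a fit to those groups alone and 6 without both libraries. With cytokines the targets called between topographies were 8, and 5 in a fit to those groups alone, and the SRF and actin genes 3, and 7 without both libraries. With THP-1 the targets were 8, with 5 in a fit to those groups alone and 13 without both libraries, and the SRF and actin genes 16, with 8 in a fit to those groups alone. In the interaction for cytokines, targets were 3, and 8 without both libraries, and SRF and actin genes 1, with 2 for upper-quartile scaling, 2 for DESeq2, 2 for limma-voom, 3 in a fit to those groups alone and 5 without both libraries. In that for THP-1, targets were 7, and 11 without both libraries. Without both libraries the share of all genes called rose as well, from 20.0% to 25.5% between topographies with THP-1. In the interaction for THP-1 it rose from 13.2% to 22%. The cause was not tested.

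With each library left out in turn, targets called ranged from 1 to 1 between controls, 3 to 8 between topographies with cytokines, 6 to 10 with THP-1, 1 to 3 and 5 to 8 in the interactions for cytokines and THP-1, 12 to 13 and 10 to 12 with cytokines on fractal and smooth topography, and 15 to 17 and 11 to 14 with THP-1. SRF and actin genes called ranged from 0 to 0, 1 to 6, 13 to 16, 1 to 3, 8 to 15, 10 to 13, 12 to 17, 19 to 21 and 16 to 17 in the same order. The change of TPM2 with THP-1 on fractal topography, 0.00, turned to -0.52 without fractal THP-1 replicate 3 and to -0.52 (adjusted p = 3.09e-08) without both libraries, and ranged up to 0.20 without fractal THP-1 replicate 1. TAGLN between topographies with THP-1 turned to -0.24 (adjusted p = 0.0184) without both libraries.

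Counts over all genes moved by more than 1.5 times in these cases. Between controls 286 were called, with 480 for DESeq2, 2755 in a fit to those groups alone and 1188 without both libraries. Between topographies with cytokines 719 were called, and 1561 without both libraries. With THP-1 3220 were called, and 1412 in a fit to those groups alone. In the interactions 436 and 2134 were called for cytokines and THP-1, with 677 for DESeq2 and 983 in a fit to those groups alone for cytokines, and 1461 and 3642 without both libraries. With single libraries left out, 131 to 150 were called between controls when any single one of the 6 libraries was left out, and 271 to 281 in the interaction for cytokines without fractal control replicates 2 or 3 or smooth control replicates 1 or 2. In the interaction for THP-1, 3266 were called without fractal THP-1 replicate 3. Upper-quartile scaling put the median change of all genes with THP-1 on fractal topography at 0.13, against 0.04 with TMM.

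The libraries of a number did not deviate together: 45 same-number correlations ran from -0.0672 to 0.0641, and 0 were over 0.1. With the replicate block, 17 targets were called with THP-1 on fractal topography and 14 SRF and actin genes with cytokines on fractal topography, against 16 and 15 without it, and CNN1 lost its call with cytokines on fractal topography (adjusted p = 0.0589). Depth limits CNN1, ACTG2 and LMOD1, which had few counts per library.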
